A study of Mus musculus with 4 samples.

Results

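The cells described here are those in which the summed transcripts of Hapln1, Prg4 and Inhba exceeded the transcripts of 6 other stromal marker sets. They were chosen in 4 single-cell RNA libraries from the mouse digit, and numbered 1180 of 50625 deposited cell barcodes. Barcodes with at least 500 genes, at least 1000 unique molecular identifiers (UMIs, 1 per captured transcript) and at most 10% mitochondrial UMIs were kept, which left 39266. Of these, the 18536 with no UMI of Ptprc (the leukocyte antigen CD45) or Cdh5 (the endothelial cadherin) and at most 2 UMIs of Rgs5 (a pericyte gene) were eligible. A cell was chosen when its UMIs of Hapln1, Prg4 and Inhba summed to at least 3 and were above each of 6 sums: C4b, Gdf10 and Cyp2f2; Pi16, Dpp4 and Pcolce2; Prss35, Spock3 and Crabp1; Chad, Omd and Scube1; Scx, Tnmd and Thbs4; and Ibsp, Sp7 and Alpl. The measured UMIs of these genes thus chose the cells, and their levels are given as a description.

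All 4 libraries came from wild-type FVB/NJ mice, labelled 8 weeks old and as a pool of males and females. The unamputated library was made from homeostatic tissue at the level of the middle phalanx (P2), and the others from fibrosing P2 tissue 12, 17 and 28 days post-amputation (dpa) through that bone, an injury from which the digit does not regenerate. After trypsin and collagenase I digestion, cells that excluded propidium iodide were sorted and captured with 10x 3′ v3 chemistry. The rule chose 235 cells in the unamputated library, 200 at 12 dpa, 207 at 17 dpa and 538 at 28 dpa. Each condition was 1 library, so no difference has a replicate check and no test was made. Intervals are exact 95% intervals (Poisson for summed UMIs, Clopper-Pearson for shares) and cover counting error only.

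The joint cavity is bounded by the synovium, whose outermost fibroblasts form a lining that secretes lubricant into the fluid. Prg4 encodes lubricin, the glycoprotein that keeps cartilage and tendon surfaces sliding, and is also made by superficial chondrocytes and by cells at tendon surfaces. Hapln1 encodes the link protein that fastens proteoglycans such as aggrecan and versican to hyaluronan. Inhba encodes the subunit of activin A, a secreted ligand of the transforming growth factor beta family that binds type II activin receptors and is held back by follistatin; it is induced in many wounded tissues and is not a marker of the joint.

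In GENCODE M21 (GRCm38) Prg4 lies on the minus strand at chr1:150449412-150466165, Hapln1 on the plus strand at chr13:89539796-89611652, and Inhba on the plus strand at chr13:16011851-16031621, all protein-coding. Most chosen cells turned out to be chosen through Inhba, and contractile genes, such as Acta2, Tagln and Myl9, were among those that moved with it. The stretches upstream of the RefSeq start are therefore shown for Inhba and for Myl9, the regulatory light chain of non-sarcomeric myosin, ending before the first GENCODE exon. Of 6 genes looked for, Hapln1, Inhba, Acta2 and Myl9 had an entry in the RefSeq promoter table (GRCm38.p6); Prg4 and Tagln were the others looked for. The motifs were searched on both strands of the 250 bases before the start: AP-1 (TGANTCA), the cyclic AMP response element CRE (TGACGTCA), the TATA box (TATAAA) and the CArG box, which serum response factor binds. Capitals mark the TATA box of Inhba, at chr13:16011601-16011850, and the CArG box of Myl9, at chr2:156775214-156775419, both on the plus strand.
Inhba: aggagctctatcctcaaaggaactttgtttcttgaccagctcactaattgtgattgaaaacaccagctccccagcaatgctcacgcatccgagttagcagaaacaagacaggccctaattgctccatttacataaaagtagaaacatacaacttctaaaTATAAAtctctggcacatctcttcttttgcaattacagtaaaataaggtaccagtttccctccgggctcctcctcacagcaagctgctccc
Myl9: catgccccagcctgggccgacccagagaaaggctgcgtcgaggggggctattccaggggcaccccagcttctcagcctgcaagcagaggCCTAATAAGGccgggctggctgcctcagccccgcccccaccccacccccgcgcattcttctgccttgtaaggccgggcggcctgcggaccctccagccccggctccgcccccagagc

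The TATA box of Inhba stood at −91 to −86 from its start, and the CArG box of Myl9 at −161 to −152. No AP-1 or CRE letters were found in either window. Over 32851 RefSeq promoters the same 250-base window held AP-1 in 6.75%, CRE in 1.55%, a TATA box in 12.4% and a CArG box in 1.47%. A match is a description of letters, and 3′ counting does not show which start was used.

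Depth and sex differed between the libraries. Totals ran from 92313847 UMIs at 12 dpa to 197140774 in the unamputated library, and chosen cells had a median of 24129, 18185, 14514 and 11246 UMIs in the unamputated, 12, 17 and 28 dpa libraries, against 17638, 12946, 11009 and 7820 in eligible cells that were not chosen. Against the label of pooled sexes, the 12 dpa library was female only. There, 111 of 200 chosen cells (55.5%) had at least 2 UMIs of Xist, the RNA of the inactive X, with none of 4 Y-linked genes, and 0 of its 6942 filtered barcodes had a male pattern (a limit of 0.0432%). In the unamputated, 17 and 28 dpa libraries 92.3%, 73.9% and 66.5% of chosen cells had at least 2 Y-linked UMIs and no Xist, and 0 had the female pattern (limits of 1.28%, 1.45% and 0.558%). In the comparison of 12 dpa with unamputated digits, time and sex therefore cannot be told apart. Pairs of libraries shared 19 to 87 barcodes, at most 0.570% of the smaller library, and no chosen barcode.

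The share of eligible cells that the rule chose was 5.33% (interval 4.68 to 6.03) for the unamputated digit and 5.75% (5.0 to 6.57) for 12 dpa. It was 4.99% (4.35 to 5.69) for 17 dpa and 8.28% (7.63 to 8.98) for 28 dpa. The intervals of the unamputated, 12 dpa and 17 dpa libraries overlapped, and 28 dpa lay above them. Because the rule needs 3 UMIs, it favours deep cells, and the libraries differed in depth. With each cell first thinned to 3000 UMIs, the shares were 1.36%, 1.94%, 2.35% and 4.67%, lowest in the unamputated library and highest at 28 dpa. The eligible set changed as well. Barcodes below 3000 UMIs were left out, and the limits on Ptprc, Cdh5 and Rgs5 were applied to the thinned counts. More leukocyte, endothelial and pericyte barcodes could thus pass as eligible. Eligible cells also included keratinocytes: without cells holding more than 2 UMIs of Krt5 and Krt14, the unamputated share was 7.31% and the 28 dpa share 10.7%. Just inside the threshold were 34, 31, 35 and 58 cells with a sum of 3, and just outside it 27, 40, 37 and 66 cells whose sum of 2 was also above the 6 others. A further 540, 401, 379 and 751 cells reached 3 but did not exceed another sum.

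Inhba alone was the leading gene, with the most UMIs of the 3, in most chosen cells early on. It led in 193 of 235 cells of the unamputated library (82.1%, interval 76.6 to 86.8) and 140 of 200 at 12 dpa (70.0%, 63.1 to 76.3). Later it led in 105 of 207 at 17 dpa (50.7%, 43.7 to 57.7) and 240 of 538 at 28 dpa (44.6%, 40.4 to 48.9). Prg4 led in 29, 42, 90 and 264 cells, or 12.3%, 21%, 43.5% and 49.1%. Hapln1 led in 12, 13, 11 and 25 cells, between 4.65% and 6.50% of each library. As a share of eligible cells, those led by Prg4 were 0.657% (0.441 to 0.943), 1.21% (0.871 to 1.63), 2.17% (1.75 to 2.66) and 4.07% (3.6 to 4.57), in the order of time with no overlap of intervals between the unamputated, 17 and 28 dpa libraries. Those led by Inhba were 4.38%, 4.02%, 2.53% and 3.70%. The balance shifted with depth: among cells of at least 10000 UMIs, Inhba led in 59.3% at 17 dpa and 62.7% at 28 dpa, and after thinning to 3000 UMIs it led in 31.2% and 26.2%, with 70.4% in the unamputated library.

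**Figure D1:**
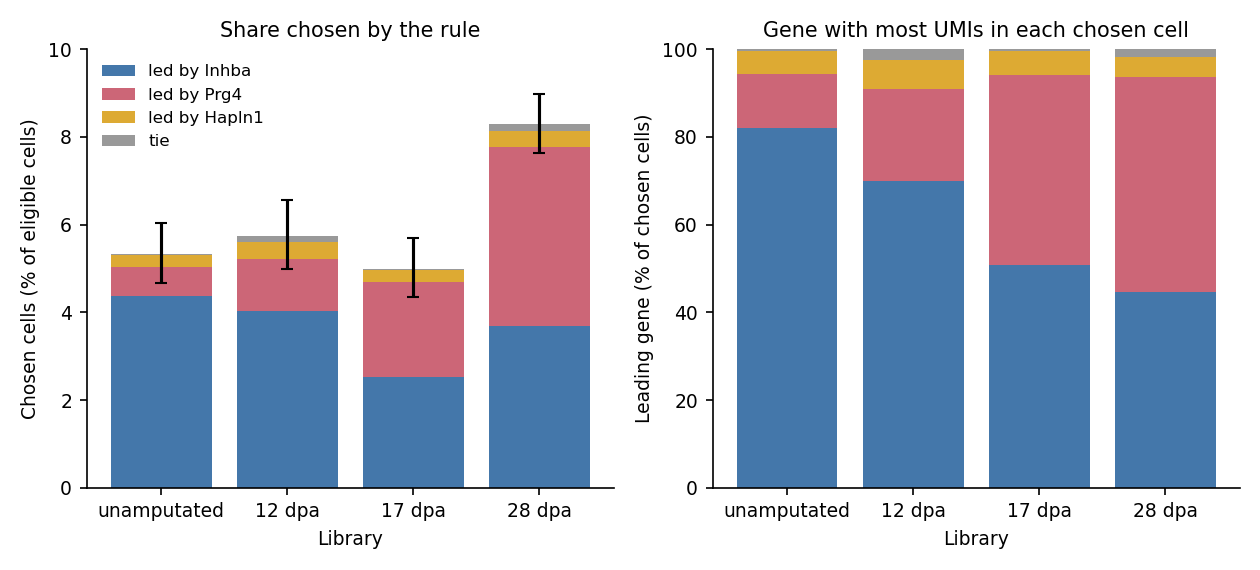
Left, chosen cells as a percentage of eligible cells in each of the 4 libraries (1 per condition), stacked by the gene with the most UMIs; error bars are exact 95% Clopper-Pearson intervals of the total, which stand between 4.99% and 8.28%. Right, the same leading genes as a percentage of chosen cells: Inhba takes 82.1% of the unamputated bar and 44.6% of the 28 dpa bar, and Prg4 12.3% and 49.1%.

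Prg4 and Hapln1, both used by the rule, were detected together in 18 of 235 (7.66%), 20 of 200 (10.0%), 25 of 207 (12.1%) and 51 of 538 (9.48%) chosen cells. Hapln1 was detected in 24.3%, 24.0%, 22.7% and 16.4% of chosen cells and Prg4 in 25.1%, 38.0%, 59.9% and 71.9%, and the lining gene Cd55, which the rule did not use, in 34.9%, 30.5%, 51.2% and 68.4%. At least 3 UMIs of both Prg4 and Inhba were found in 8.94%, 12.0%, 10.1% and 13.6%. Over all other expressed genes, the chosen cells lay nearest to the Scx, Tnmd and Thbs4 class, whose genes mark tendon, in every library, with a root mean square log2 difference of 0.464, 0.620, 0.426 and 0.575 after thinning within each library. The same class was nearest to the cells led by Inhba and to those led by Prg4 in all 4 libraries. The cells are called Hapln1, Prg4 and Inhba cells, or by their leading gene, from here on.

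Prg4 was very unevenly spread. In summed UMIs of chosen cells, expressed as counts per 1e+06 UMIs (CPM), it stood at 223 CPM (211 to 234) before amputation and 312 (295 to 330) on day 12. It stood at 2438 CPM (2386 to 2491) on day 17 and 1438 (1410 to 1466) on day 28. A single cell held 19.5%, 15.6%, 21.9% and 34.4% of these UMIs, up to 3478 UMIs at 28 dpa, and without it the levels were 180, 265, 1912 and 946 CPM. The 10 highest cells held 75.6%, 67.7%, 79.9% and 48.7%, and without them the levels were 57.1, 107, 513 and 749 CPM. In the cells led by Prg4 its level was 1810, 1568, 7042 and 3791 CPM, and in those led by Inhba 35.0, 34.6, 40.3 and 62.7 CPM. So 17 and 28 dpa stood above the other libraries in all 3 counts, but 17 dpa was the higher of the pair with the top 10 cells and the lower without them.

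Lubricin transcripts outside the chosen cells were also higher at 28 dpa than before amputation. In the 6 other classes together Prg4 was at 17.0 CPM (15.8 to 18.3), 10.5 (9.35 to 11.7), 35.8 (33.7 to 38.0) and 129 (124 to 133), in the order of the libraries used throughout (unamputated, 12, 17 and 28 dpa). At 28 dpa it reached 161 CPM in the tendon-gene class, 156 in the Chad, Omd and Scube1 class and 145 in the Pi16, Dpp4 and Pcolce2 class, with a UMI in 47.2%, 34.5% and 39.5% of their cells. Beside these stands the background: at 28 dpa, 6.48% of endothelial barcodes and 6.56% of immune barcodes held a Prg4 UMI, against 1.32% and 0.953% in the unamputated library. Their medians were 6023 and 7960.5 UMIs a cell at 28 dpa, and 11964 and 9154 in the unamputated library. In summed level, endothelial barcodes were at 2.42, 0.472, 353 and 62.9 CPM and immune ones at 2.20, 1.55, 130 and 14.4, above the 6 classes at 17 dpa. Mural barcodes were at 56.6, 1.41, 566 and 748 CPM with a UMI in 0.841% to 5.25% of them, so few barcodes held it. The share in the Prss35, Spock3 and Crabp1 class, 5.71% of 35 cells, was at that level.

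Inhba and Hapln1 were steadier. Inhba stood at 613 CPM (594 to 632), 618 (594 to 643), 567 (542 to 592) and 369 (355 to 384) in chosen cells, lowest at 28 dpa. Its 10 highest cells held 40.8%, 39.6%, 48.3% and 15.6% of its UMIs, and without them it was at 394, 411, 322 and 322 CPM, the same at 17 and 28 dpa. Within the cells led by it, Inhba was at 694, 751, 865 and 542 CPM. Other classes expressed it too: it was at 108, 93.6, 103 and 172 CPM in the tendon-gene class, at 98.1, 70.3, 163 and 174 in the Prss35, Spock3 and Crabp1 class, and at 104, 77.2, 46.5 and 34.5 in the Ibsp, Sp7 and Alpl class of bone. Hapln1 was at 36.1 CPM (31.6 to 41.1), 30.5 (25.2 to 36.5), 54.0 (46.5 to 62.3) and 70.8 (64.7 to 77.3). Its 10 highest cells held 54.5%, 42.4%, 58.6% and 41.0% of its UMIs, and without them it was at 17.1, 18.5, 23.7 and 43.0 CPM.

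The synovial lining genes Clic5 and Htra4 were higher in cells led by Prg4 in 3 of the 4 libraries. Clic5 (a chloride channel family protein of the cell cortex) was at 51.5 CPM (35.9 to 71.6), 1.44 (0.0364 to 8.01), 251 (223 to 281) and 109 (96.5 to 122) in cells led by Prg4. In cells led by Inhba it was at 4.92, 2.03, 4.37 and 11.6 CPM. Htra4, a secreted serine protease, was at 1.27, 0.678, 1.46 and 2.53 CPM in cells led by Inhba, and its log2 difference (Prg4-led minus Inhba-led) was 5.36, 0.54, 6.47 and 4.17. Both genes were thus far higher in cells led by Prg4 in the unamputated, 17 and 28 dpa libraries, and near 0 in both kinds of cell at 12 dpa. Not every lining gene was split this way. Hbegf was at 47.1, 56.1, 199 and 78.2 CPM in cells led by Prg4, against 96.0, 154, 157 and 36.7 in those led by Inhba. It was thus lower in cells led by Prg4 in the unamputated and 12 dpa libraries.

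Few cells carried these transcripts. Of cells led by Prg4 with 20 or more Prg4 UMIs, 3 of 16, 1 of 14, 9 of 38 and 19 of 98 had a Clic5 UMI, whereas of those with 3 to 9 Prg4 UMIs, 0 of 9, 0 of 20, 2 of 35 and 2 of 91 had one. For Htra4 the counts at 20 or more were 5 of 16, 0 of 14, 12 of 38 and 16 of 98. The split by Prg4 UMIs was made after the data had been seen. Cells with 3 to 9 Prg4 UMIs had a median of 23644, 12802, 9625 and 8556 UMIs in all, and those with 20 or more 22696, 23038, 12278 and 8742. The latter were thus clearly deeper at 12 dpa, deeper at 17 dpa as well, and little different in the unamputated and 28 dpa libraries. Cd55, the complement decay-accelerating factor that lining fibroblasts carry, was found far more widely. It was also higher with more Prg4 UMIs late: at 3 to 9, 10 to 19 and 20 or more it was at 108, 174 and 259 CPM at 17 dpa and 232, 383 and 690 at 28 dpa. It was at 98.5, 61.8, 188 and 447 CPM in cells led by Prg4, at 63.6, 32.5, 151 and 307 in those led by Inhba, and at 120, 96.4, 168 and 320 in the 6 other classes. The intervals of the cells led by Prg4 and by Inhba were apart in every library but 17 dpa. Endothelial barcodes also held Clic5, at 112, 89.6, 115 and 139 CPM. After thinning, at least 1 UMI of Cd55, Clic5, Htra4 and Tspan15 was found in 12 of 29, 8 of 40, 32 of 87 and 140 of 258 cells led by Prg4. The counts were 26 of 193, 12 of 139, 26 of 104 and 113 of 236 in those led by Inhba. The share was 21.6%, 19.2%, 26.9% and 41.6% in the 6 other classes, above cells led by Inhba in the first 3 libraries, and about that of cells led by Prg4 at 12 dpa. In endothelial barcodes it was 35.2% to 43.8%, above cells led by Prg4 at 12 dpa.

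**Figure D2:**
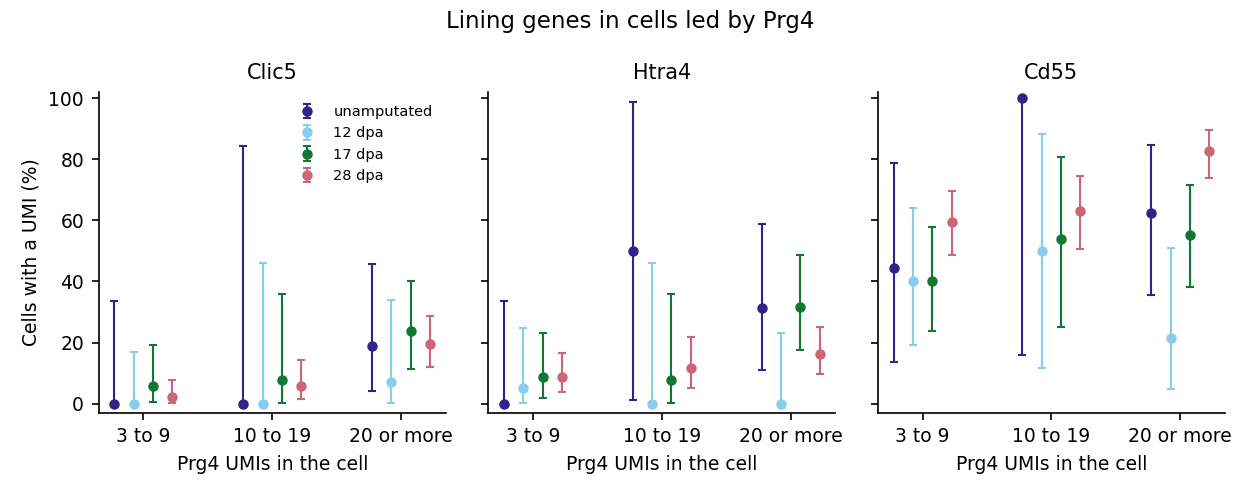
Share of cells led by Prg4 with at least 1 UMI of Clic5, Htra4 or Cd55 (vertical axis, %), by the number of Prg4 UMIs in the cell (horizontal axis) and library (colours); bars are exact 95% Clopper-Pearson intervals. Clic5 stays at or below 7.69% under 20 Prg4 UMIs and reaches 23.7% at 17 dpa above it, while Cd55 is seen in 40.0% or more of the cells in every bin except the highest at 12 dpa (21.4%).

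The cells richest in lubricin and Clic5 were in part not among those chosen. Barcodes past the filter with at least 50 Prg4 UMIs, a limit set after the data had been seen, numbered 12, 5, 30 and 45. The rule chose 9, 5, 21 and 31 of them, and left out 3, 0, 9 and 14, all as not eligible. Of those left out, 3, 8 and 11 in the unamputated, 17 and 28 dpa libraries had more than 2 UMIs of Rgs5, 0, 2 and 3 had a Cdh5 UMI and 0, 2 and 1 a Ptprc UMI. Their Prg4 stood at 21315, 41138 and 35285 CPM, against 3693, 22801 and 18472 in the chosen ones. Clic5 was at 2225, 2096 and 1923 CPM in those left out and 128, 776 and 595 in those chosen, and a Clic5 UMI was present in 2 of 3, 8 of 9 and 12 of 14 of them. Of the chosen ones, 4 of 9, 8 of 21 and 9 of 31 had a Clic5 UMI. In the 3 libraries that held both, Prg4 and Clic5 were thus at a higher level in the barcodes left out than in those chosen. Cd55 was at 647, 676 and 681 CPM in those left out and 99.6, 410 and 785 in those chosen, so it was lower in those left out at 28 dpa.

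Cells led by Inhba were the contractile side of the chosen cells. Transgelin (Tagln), an actin-binding protein of smooth muscle and myofibroblasts, was at 299 CPM (284 to 313), 274 (255 to 293), 259 (238 to 282) and 200 (186 to 214) in cells led by Inhba. In cells led by Prg4 it was at 16.2 (8.08 to 28.9), 33.1 (21 to 49.6), 13.6 (7.75 to 22.0) and 17.8 (13.0 to 23.8). The log2 difference, Prg4-led minus Inhba-led, was −4.12, −3.01, −4.16 and −3.42. Acta2, smooth muscle actin, was at 595, 830, 408 and 333 CPM in cells led by Inhba and at 103, 197, 89.0 and 68.9 in those led by Prg4, and Myl9 at 116, 135, 98.0 and 73.3 against 42.6, 56.1, 27.1 and 20.5. For Acta2 and Tagln the intervals of the cells led by Inhba and by Prg4 did not overlap in any library.

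All 14 tested members of the contractile list (of 15 genes; actin, myosin light and heavy chains, tropomyosins, actinin, calponins and others) were lower in cells led by Prg4 in all 4 libraries, as were 977 of 6564 genes (14.9%), and 3 of them were lower by more than 2-fold each time. The median of the list was −0.76, −0.49, −0.60 and −0.64, against 0.050, 0.026, −0.017 and −0.054 over all genes tested. Over all genes, 28 (0.427%) were at least 2-fold higher in cells led by Prg4 in every library and 10 (0.152%) at least 2-fold lower. After thinning, 3 or more UMIs of Acta2, Tagln and Myh11 were found in 23.8%, 33.1%, 16.3% and 10.2% of cells led by Inhba. The share was 0% of 29 cells (a limit of 10.3%), then 2 of 40, 1.15% and 1.94%, in those led by Prg4, and 19.8%, 35.2%, 10.9% and 8.25% in the tendon-gene class.

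Mural cells, the pericytes and smooth muscle of vessel walls, express the same genes at a higher level, with Acta2 at 3488 to 3911 CPM and 77.6% to 87.9% of thinned barcodes past 3 UMIs. Of 6 mural markers, Myh11 was at 36.4, 9.83, 51.0 and 41.2 CPM in cells led by Inhba and 2.94, 0, 0 and 3.87 in those led by Prg4. The summed level of the 6 was 220, 154, 287 and 243 CPM against 107, 145, 130 and 113, most of it Cspg4, at 125, 134, 216 and 189 against 91.2, 142, 117 and 100. The part of mural RNA in the difference was not tested.

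Other genes split the cells the same way in every library. Higher in cells led by Inhba was Ptgs2, the inducible prostaglandin synthase (log2 differences of −1.65, −2.59, −1.91 and −1.03). C1qtnf3, a secreted collagen-like protein, stood at −1.38, −1.27, −2.08 and −1.20. The matricellular proteins Thbs1 (−1.86, −2.17, −1.44 and −0.99) and Tnc (−1.68, −1.01, −1.02 and −0.94) had the same direction but missed 2-fold in the 28 dpa library. Il11, a cytokine of fibrotic stroma, was at 35.5, 27.1, 49.5 and 30.9 CPM in cells led by Inhba and 8.82, 21.6, 22.0 and 3.10 in those led by Prg4, with overlapping intervals at 12 dpa.

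Other genes were higher in cells led by Prg4. Sox5, which drives cartilage genes together with Sox9, was at 524 CPM (471 to 581), 366 (323 to 414), 520 (480 to 563) and 344 (321 to 367) against 208, 145, 207 and 136 in cells led by Inhba, a log2 difference of 1.33 in each of the 4 libraries. Comp, a cartilage and tendon matrix protein, was at 721, 333, 687 and 1105 CPM against 131, 156, 181 and 330. Mmp13, the collagenase of cartilage and bone remodelling, had log2 differences of 2.30, 2.23, 2.57 and 3.06 and stood at 1991, 717, 1074 and 174 CPM in cells led by Prg4. Esr1, the oestrogen receptor, was at 210, 31.6, 107 and 66.6 against 11.7, 2.71, 13.1 and 8.09, and Gas1, a cell surface co-receptor of hedgehog ligands, at 688, 262, 319 and 328 against 127, 57.0, 110 and 80.4. Enpp2 (autotaxin, which makes lysophosphatidic acid) and the chemokine Cxcl12 had log2 differences of 2.16, 1.59, 3.33 and 1.96, and of 1.74, 1.25, 3.27 and 3.21. Other cells held some of these genes too. In the 6 other classes Cxcl12 was at 258, 123, 311 and 256 CPM, close to the 225, 124, 336 and 205 in cells led by Prg4. Mmp13 was at 647, 165, 822 and 377 CPM there, below the cells led by Prg4 in the first 3 libraries and above them at 28 dpa. Gas1 was at 379, 213, 418 and 290 CPM in the 6 other classes, and Sox5 at 1225, 859, 904 and 573 CPM in mural barcodes. Of the lists, 4 of 9 lining genes and 4 of 11 cartilage genes tested were higher in cells led by Prg4 in all 4 libraries, beside 1010 of 6564 genes (15.4%). None of the 9 lining genes and 2 of the 11 cartilage genes were at least 2-fold higher in all 4. The medians were 0.93, 0.18, 0.80 and 1.07 for the lining list and 1.55, 0, 0.50 and 0.85 for the cartilage list.

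**Figure D3:**
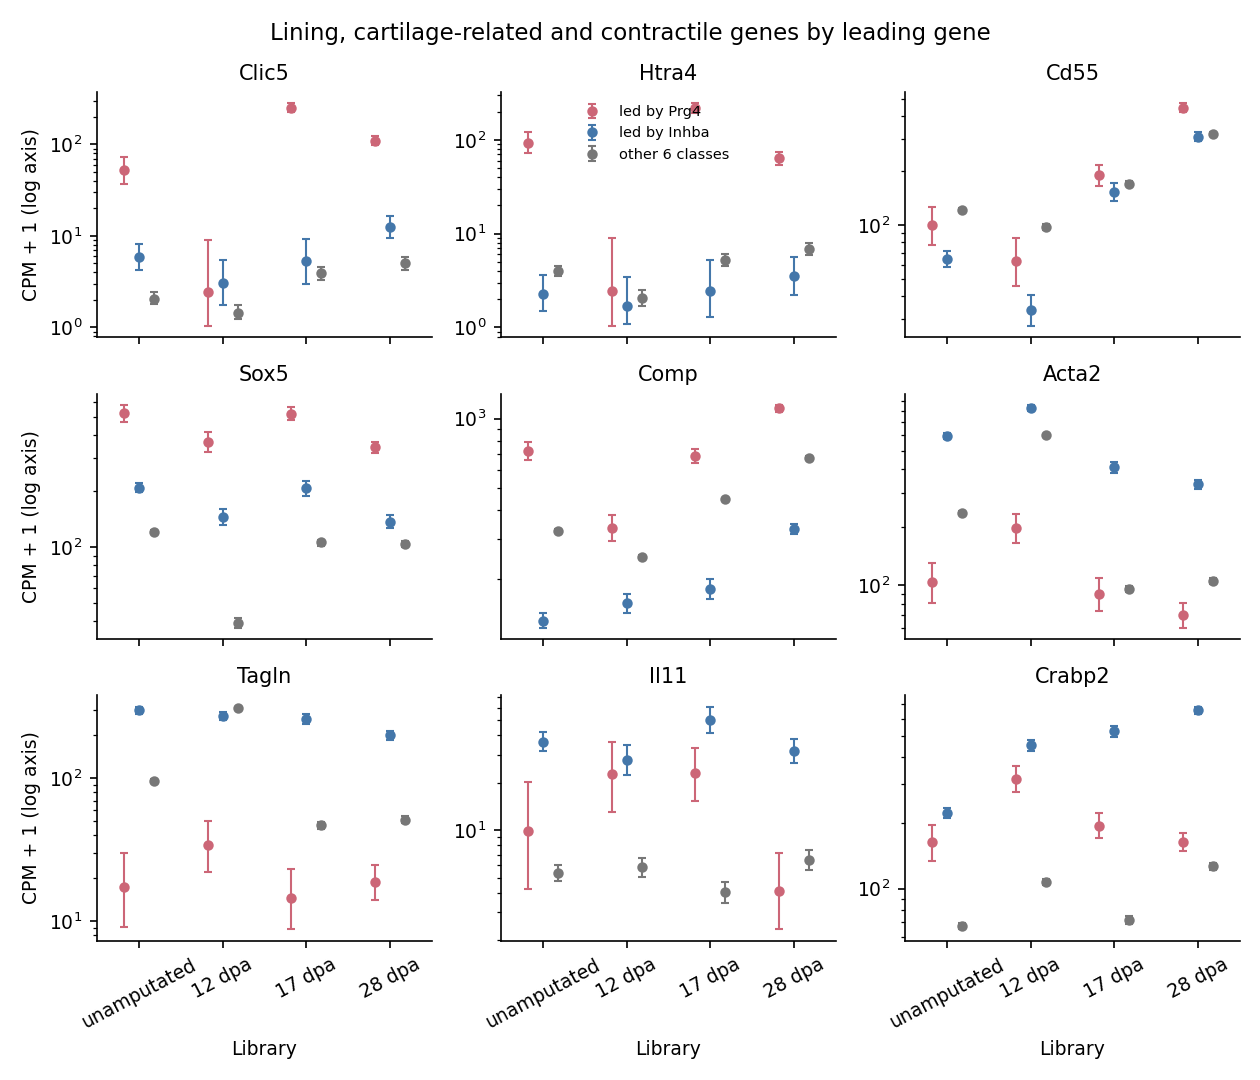
Summed level (CPM plus 1, log axis) of 9 genes in cells led by Prg4, cells led by Inhba and the 6 other marker classes, in each of the 4 libraries; bars are exact 95% Poisson intervals. Clic5 and Htra4 are high in cells led by Prg4 in 3 of the 4 libraries, Sox5 and Comp in all 4, and Acta2, Tagln and Crabp2 are higher in cells led by Inhba in all 4.

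The main collagen of cartilage, Col2a1, was nearly undetected in the chosen cells. Col2a1 had 0 UMIs in chosen cells at 17 and 28 dpa and was at 0.258 CPM at 12 dpa. Its 20.9 CPM in the unamputated library came from 2 cells, 1 led by Prg4 at 196 CPM over that group and 1 led by Inhba. Of 23 cartilage genes, 8 in all chosen cells reached the minimum of a mean of 20 CPM. Acan, the large proteoglycan that link protein holds, was at 190, 177, 172 and 178 CPM. Gdf5, which marks the joint interzone of the embryo, was at 1.56, 0.516, 0.581 and 1.99 CPM.

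The few cells led by Hapln1 differed between libraries. Sox10, a transcription factor of glia and neural crest, had UMIs in 5 of 12, 4 of 13, 0 of 11 and 3 of 25 of them, in the order unamputated, 12, 17 and 28 dpa, and stood at 82.3, 74.7, 0 and 32.7 CPM. In all chosen cells it was at 2.81, 4.13, 0 and 2.27 CPM, and the part of glial RNA in these levels was not tested. At 28 dpa the cells led by Hapln1 were rich in matrix transcripts: Comp was at 5096 CPM (4868 to 5333), Acan at 1255 (1143 to 1375) and Col1a1 at 27792 (27255 to 28337), with Comp in 21 of 25 cells. The same genes were at 13.7, 32.0 and 9632 CPM in the unamputated library, in 1 of 12 cells for Comp and for Acan. These levels rest on 12 and 25 cells, of which 5 and 3 held Sox10 UMIs. The sets compared thus also differed in this glial gene, and its part in the matrix contrast was not tested.

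Against the 6 other classes the choice itself fixes part of any difference, so these values describe the cells. Of 6600 genes, 19 (0.288%) were at least 2-fold higher in the chosen cells in all 4 libraries and 29 (0.439%) at least 2-fold lower. The leading one outside the rule was Crabp2, which carries retinoic acid to the nucleus, at 207, 410, 397 and 462 CPM against 66.4, 106, 71.1 and 126. It was higher in cells led by Inhba (221, 452, 526 and 656 CPM) than in cells led by Prg4 (162, 318, 193 and 162). Hbegf, an EGF receptor ligand, was at 90.9, 136, 165 and 52.6 CPM against 32.3, 54.1, 20.2 and 13.0. Anxa8, a calcium-dependent membrane-binding protein, was at 372, 406, 629 and 902 against 144, 127, 168 and 447, and the cell cycle inhibitor Cdkn1a at 123, 143, 346 and 392 against 43.1, 39.5, 87.6 and 181. Also among those named were Tspan2, Fxyd5, Slc7a2, Ano1, Tm4sf1 and Sox5. Enpp1, Stk38l and Ltbp2 (a latent TGF-beta binding protein) were named too but missed 2-fold in 1 or 2 of the libraries. Vcan (versican, a partner of link protein) missed it in all 4, at 1351, 886, 1065 and 1290 CPM against 708, 488, 567 and 681.

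After amputation, the chosen cells of each library were compared with those of the unamputated library, which all 3 comparisons share. Of 6570 genes, 27 (0.411%) were at least 2-fold higher and 251 (3.82%) at least 2-fold lower at 12 dpa. At 17 dpa 79 (1.20%) were higher and 140 (2.13%) lower, and at 28 dpa 204 (3.11%) were higher and 465 (7.08%) lower. The median log2 ratio of all genes was −0.19, −0.046 and −0.12. With median-of-ratios scaling the medians were 0.02, 0.03 and 0.06, and the higher genes made up 52.6%, 47.4% and 51.0% of those past 2-fold, against 9.71%, 36.1% and 30.5%. That scaling centres the ratios near 0 by its construction, so the balance of higher and lower genes depends on the scaling chosen. In cells led by Inhba alone, 34 (0.523%), 73 (1.12%) and 242 (3.72%) of 6504 genes were higher and 301 (4.63%), 199 (3.06%) and 511 (7.86%) lower.

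At 12 dpa the lining genes were low in all chosen cells together. Of 9 tested members of the synovial lining list, 5 were at least 2-fold lower and none higher, with a median of −1.09 against −0.19 over all genes. In cells led by Inhba 2 of 6 tested members were at least 2-fold lower, with a median of −0.78 against −0.18. Clic5 was at 9.69 CPM in the unamputated library and 1.81 at 12 dpa, Htra4 at 10.9 and 0.774, Itga6 (a laminin receptor chain) at 105 and 16.3, and Creb5, a transcription factor that promotes lubricin expression, at 210 and 98.3. Col22a1, a collagen of tissue junctions, was at 8.59 CPM and then 0. Without barcodes of high Scrublet doublet score, which were 42.1% of the chosen cells of the unamputated library, the Clic5 ratio at 12 dpa was 0.28 in place of −1.93. At 17 and 28 dpa 4 members were at least 2-fold higher, with a median of 0.85 and 0.78, and at 28 dpa 1, Itga6, was at least 2-fold lower. The 28 dpa ratio of Itga6 was 0.03 with cells thinned to 3000 UMIs and 0.57 in cells led by Prg4. In cells led by Inhba 1 of 6 was higher and none lower at 17 dpa, and 1 higher and 2 lower at 28 dpa, with medians of 0.44 and 0.20. Clic5 stood at 88.6 and 46.9 CPM and Cd55 at 162 and 341.

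The ratios of Cd55 were close in cells led by Prg4 and by Inhba, while those of Clic5 were apart at 12 and 17 dpa and close at 28 dpa. For Cd55 the log2 ratios to unamputated were −0.71, 1.29 and 2.35 in all chosen cells, −0.94, 1.23 and 2.25 in cells led by Inhba and −0.66, 0.93 and 2.17 in cells led by Prg4. In the 6 other classes the ratios were −0.31, 0.48 and 1.41. For Clic5 they were −1.93, 3.07 and 2.16 in all chosen cells, −4.43, 2.26 and 1.07 in cells led by Prg4, the first resting on 1 UMI at 12 dpa, and −0.96, −0.14 and 1.09 in cells led by Inhba. The share of chosen cells led by Prg4 was also larger at 17 and 28 dpa. Single cells weighed on these sums: 1 cell held 32.3%, 31.1% and 34.8% of the Clic5 UMIs in the unamputated, 17 and 28 dpa libraries, and the 10 highest cells 91.9%, 97.4% and 81.5%. Without those 10 the Clic5 level was 0.821, 2.42 and 8.90 CPM, highest at 28 dpa in place of 17 dpa.

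Contractile genes were lower late. Acta2 was at 522 CPM (505 to 540), 679 (654 to 706), 277 (259 to 295) and 214 (203 to 225), Tagln at 259, 221, 161 and 121, and Myl9 at 107, 116, 69.7 and 50.2. At 28 dpa 0 of 14 contractile genes had a ratio above 0 and 6 were at least 2-fold lower, with a list median of 0.036, −0.48 and −0.96 at 12, 17 and 28 dpa. Over all genes 2697 of 6570 (41.1%) had a ratio above 0 at 28 dpa and 58.9% one below it. In cells led by Inhba alone 1 of the 14 was above 0 and 2 were at least 2-fold lower, with medians of 0.074, −0.24 and −0.66. The ratios of Acta2 were 0.38, −0.91 and −1.28 in all chosen cells, 0.48, −0.54 and −0.83 in cells led by Inhba, and 1.33, −1.32 and −1.17 in the 6 other classes.

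Of 7 cell cycle genes tested, 6 were at their lowest at 28 dpa. Mki67 was at 60.8, 51.9, 46.7 and 14.1 CPM, Top2a at 71.4, 78.5, 43.8 and 21.6, and Cenpf at 43.6, 61.7, 34.0 and 9.38. The list holds 17 proliferation genes, of which 7 reached the minimum level. The same 6 were at least 2-fold lower at 28 dpa than before amputation, and Pcna, the replication clamp, was at 57.2, 70.5, 68.8 and 60.7 CPM, with a list median of 0.42, −0.30 and −2.03. Birc5, which guards chromosome segregation, was at 31.9, 72.0, 29.0 and 6.68 CPM, highest at 12 dpa.

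General fibroblast genes were mixed at 28 dpa, with more higher than lower. Of the 15 general fibroblast genes, 3 were at least 2-fold higher at 17 dpa and 6 at 28 dpa, with 1 lower there, Pdgfrb (−1.11). At 28 dpa 10 of the 15 had a ratio above 0, and the collagens Col1a1, Col1a2 and Col3a1 were below it at −0.93, −0.51 and −0.23. The list median was −0.15, 0.52 and 0.75 at 12, 17 and 28 dpa. Ly6a (Sca-1) was at 230, 187, 556 and 1253 CPM, Clec3b (tetranectin) at 365, 192, 716 and 1307, Cd34 at 127, 80.8, 234 and 348, and Dcn (decorin, which binds collagen fibrils and TGF-beta) at 1919, 1620, 3944 and 5941. All 4 were lowest at 12 dpa and highest at 28 dpa.

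Matrix and remodelling genes were mixed. Postn (periostin, a wound matrix protein) was at 3155, 3143, 1884 and 748 CPM and Tnc (tenascin C) at 921, 812, 587 and 305. Of 28 tested matrix genes 6 were at least 2-fold lower at 28 dpa (Col6a3, Col12a1, Tnc, Postn, Eln and Lox) and 1, Dcn, higher, with a median of −0.13, 0.033 and −0.31. Comp was at 190, 199, 393 and 877 CPM, but in cells led by Prg4 its ratios were −1.11, −0.068 and 0.62, against 0.24, 0.46 and 1.32 in those led by Inhba. Of the proteases, Mmp13 was at 560, 277, 493 and 79.0 CPM. Its 10 highest cells held 69.9% to 84.6% of the UMIs, and without them it was at 159, 87.4, 80.1 and 22.4, so 17 dpa stood above 12 dpa through those cells and 28 dpa was lowest either way. Mmp3 (stromelysin) was at 178, 161, 31.4 and 22.7. Without barcodes of high Scrublet score its log2 ratio at 17 dpa was 0.25, so its direction turned. Timp1, an inhibitor of these proteases, was at 681, 1692, 1149 and 683.

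Of the genes around Inhba, its antagonist was at least 2-fold lower at all 3 times in the summed UMIs of chosen cells. Fst, follistatin, which binds activin and keeps it from its receptors, was at 121 CPM (113 to 130), 28.4 (23.3 to 34.2), 32.5 (26.8 to 39.1) and 18.5 (15.4 to 21.9), with log2 ratios of −2.05, −1.86 and −2.65. With each cell thinned to 3000 UMIs, which changes the cells chosen, the 17 dpa ratio was 1.31. The cells led by Inhba held it at 113, 10.5, 19.4 and 13.2 CPM, ratios of −3.31, −2.48 and −3.01. The ratios in cells led by Prg4 were 0.036, 0.84 and −0.26, and in the 6 other classes −1.63, −0.82 and −0.85. The type I and II receptors Acvr1 (log2 ratios of −0.20, −0.45 and −0.73) and Acvr2a (−0.43, −0.43 and −0.92) stayed within 2-fold. Of 16 tested genes of the activin and TGF-beta list, 1, 2 and 1 were at least 2-fold lower and none higher, with a median of −0.40, −0.084 and −0.20. Over all genes 3.82%, 2.13% and 7.08% were at least 2-fold lower and 0.411%, 1.20% and 3.11% at least 2-fold higher.

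The hyaluronan list, the chemistry to which link protein belongs, had a median of −0.64, −0.24 and −0.21 over 10 genes. Its synthases parted: Has1 was at 51.7, 27.1, 84.8 and 77.2 CPM and Has2 at 99.5, 51.4, 58.7 and 31.6. The hyaluronan-degrading Cemip and Cemip2, with Has2 and the mitotic receptor Hmmr, were the 4 members at least 2-fold lower at 28 dpa. Wnt antagonists were mixed, with Sfrp2 at 107, 74.3, 46.7 and 12.2 CPM and Wif1 at 15.8, 5.42, 27.6 and 86.2. The list medians were −0.57, 0.21 and 0.067 for Wnt and BMP antagonists, −0.22, −0.17 and −0.21 for cartilage, −0.41, 0.27 and 0.38 for joint formation, 0.037, 0.33 and 0.21 for limb transcription factors, 0.10, 0.19 and −0.12 for inflammatory signals, −0.050, −0.082 and −0.023 for proteases and −0.64, 0.11 and 0.19 for dissociation stress genes. None of the 9 limb transcription factors and none of the 6 joint formation genes tested was past 2-fold at any time. Over all 6570 genes 0.411%, 1.20% and 3.11% were at least 2-fold higher and 3.82%, 2.13% and 7.08% at least 2-fold lower. At those shares, lists this small would hold few such genes. Some of the small list medians turned sign with the averaging. Median-of-ratios scaling gave 0.17, 0.19 and 0.17 for proteases, 0.15 for inflammatory signals at 28 dpa, 0.08 for matrix at 12 dpa and 0.06 for general fibroblast genes at 12 dpa. The mean of per-cell fractions gave 0.03 and 0.30 for proteases (12 and 17 dpa), −0.02 and 0.40 for inflammatory signals (17 and 28 dpa), −0.13 for matrix at 17 dpa, −0.16 for Wnt and BMP antagonists at 17 dpa, and −0.08 and −0.11 for contractile and limb genes at 12 dpa.

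**Figure D4:**
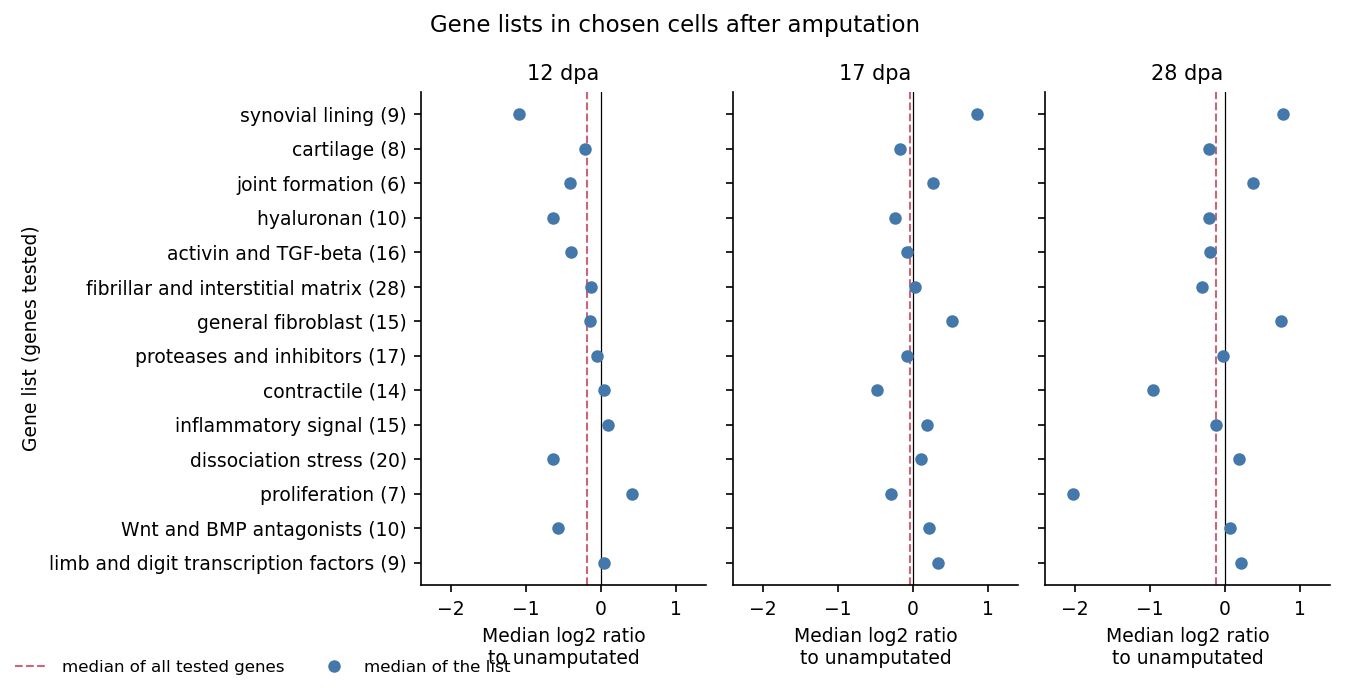
Median log2 ratio of CPM to the unamputated library (horizontal axis) of 14 gene lists in chosen cells at 12, 17 and 28 dpa, with the number of genes tested in brackets; the dashed line is the median of all 6570 genes. The lining list stands at −1.09, 0.85 and 0.78, and the contractile (−0.96) and proliferation (−2.03) lists are lowest at 28 dpa.

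Among the highest at 28 dpa were Stmn2, a microtubule regulator (9.69, 9.29, 55.5 and 186 CPM, a log2 ratio of 4.13), Ly6c1 (73.7, 63.5, 254 and 707 CPM, 3.24), the clock output factor Dbp (10.3, 40.0, 29.9 and 104 CPM, 3.22), Tnxb, a tenascin of collagen assembly (59.8, 17.8, 284 and 517 CPM, 3.09), and the proteoglycan Prelp (90.3, 70.0, 276 and 743 CPM, 3.03). In the 6 other classes the 28 dpa ratios of Stmn2, Ly6c1, Tnxb and Prelp were 3.78, 2.75, 2.28 and 2.44. With each cell thinned to 3000 UMIs, which changes the cells chosen, Stmn2 stood at −0.18 in place of 4.13. At 17 dpa Sema3e, a guidance ligand (27.3, 13.2, 112 and 175 CPM), Enpp2 (59.5, 33.6, 223 and 171 CPM), Pcsk6, a proprotein convertase (6.56, 5.42, 51.7 and 37.7 CPM), and Zfp385b (15.3, 7.49, 104 and 36.1 CPM) were among the highest. Of these, Sema3e had a 17 dpa ratio of 2.04 in cells led by Inhba and 1.58 in cells led by Prg4. The ratios of the others were smaller in cells led by Inhba: 0.28 for Enpp2, 0.29 for Pcsk6 and −0.14 for Zfp385b, against 1.45, 3.41 and 1.53 in cells led by Prg4 and 1.89, 2.80 and 2.69 in all chosen cells. At 12 dpa the highest included Ccl2, a monocyte chemokine (70.5, 289, 81.0 and 182 CPM, 2.02), Nupr1, a stress-response regulator (398, 1309, 1832 and 2070 CPM, 1.71), and Cdk8 (260, 726, 567 and 289 CPM, 1.48). Ccl2 was not higher in the 6 other classes at 12 dpa (−0.38), while Nupr1 (0.86) and Cdk8 (1.31) had the same direction there.

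Among the lowest, the neutrophil chemokine Cxcl5 was at 83.9, 123, 7.84 and 0.284 CPM and the imprinted gene Mest at 113, 55.2, 14.5 and 2.42. Both were lower in the 6 other classes as well, with 28 dpa ratios of −3.25 and −4.46 against −6.05 and −5.07 in the chosen cells. Nrg1, an ERBB ligand, was at 103, 20.7, 8.13 and 3.84 CPM and Igfbp2, an IGF binding protein, at 70.8, 14.2, 5.81 and 17.9. The ratios of Igfbp2 at 12, 17 and 28 dpa were −2.24, −3.40 and −1.92 in all chosen cells. In cells led by Prg4 they were 0.78, −0.55 and 2.07.

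**Figure D5:**
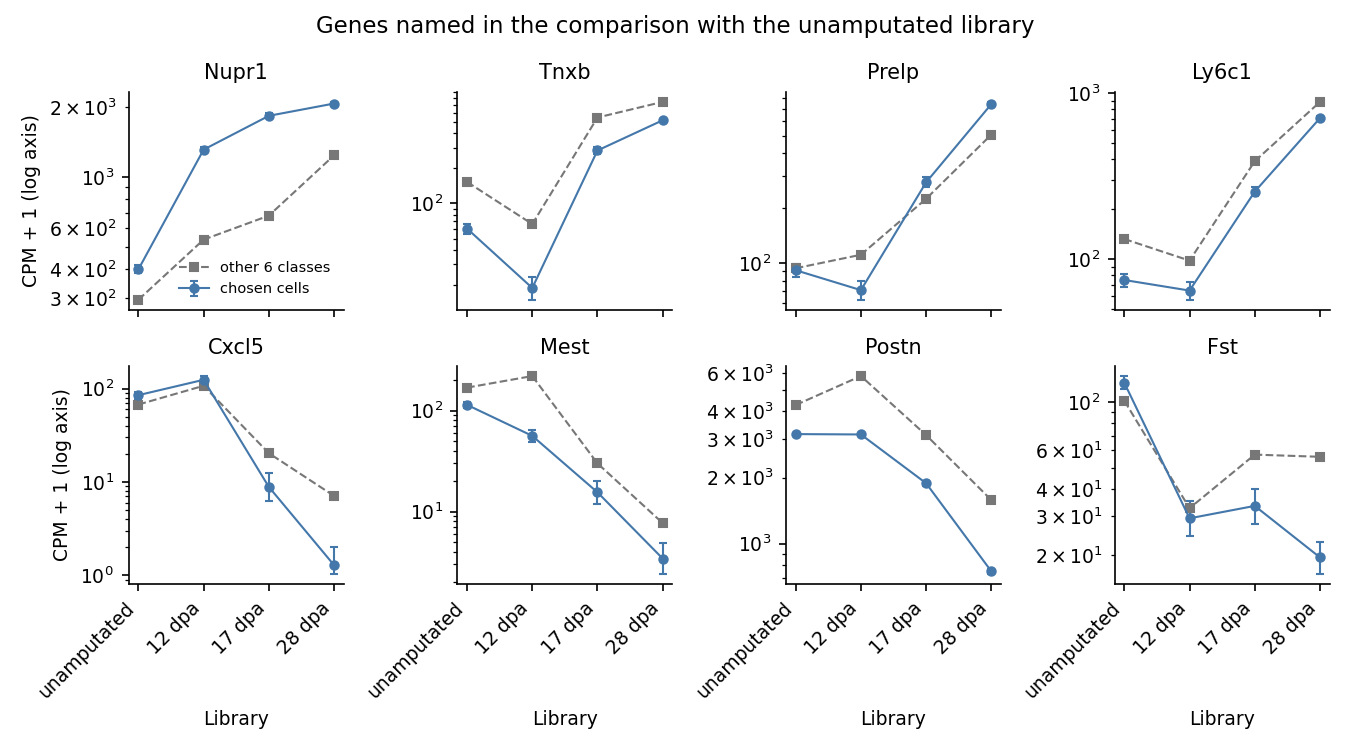
Level (CPM plus 1, log axis) of 8 genes in chosen cells (circles, with exact 95% Poisson intervals) and in the 6 other classes (squares) in the 4 libraries; lines only join the libraries. Tnxb, Prelp and Ly6c1 end highest at 28 dpa in both, Cxcl5, Mest and Postn end lowest at 28 dpa in both, and Fst in chosen cells is highest in the unamputated library at 121 CPM.

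Keratinocyte RNA moved with these comparisons. Of 8 keratinocyte markers, 6, 3, 6 and 7 were at 20 CPM or more in chosen cells, and their summed level was 3113, 138, 632 and 911 CPM, led in the unamputated library by Krt14 at 1955 CPM. There, 20 of 235 cells with more than 2 UMIs of Krt5 and Krt14 held 99.5% of the Krt14 UMIs, and 6, 13 and 51 such cells were chosen later. The 8 genes named as lowest at 12 dpa were all epithelial (Krt6a, Krt17, Ly6d, Lama3, Sfn, Col17a1, S100a14 and Krtdap), with Krt6a at 1036, 1.55, 17.7 and 12.1 CPM. Without the keratin cells the ratio of Nrg1 at 12 dpa was 0.59 in place of −2.27.

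Several marker lists of other cells were low in the chosen cells. All 7 endothelial markers stayed under 20 CPM (summed 9.67 to 13.3 CPM). Macrophage markers summed to 35.4 to 189 CPM, with Lyz2 highest. Neutrophil markers summed to 1151, 24.8, 835 and 3.98 CPM, and 1 cell held 70.8% of the S100a8 UMIs in the unamputated library and 95.6% at 17 dpa. Osteoclast markers summed to 22.5 to 38.0 CPM, and melanocyte (at most 1.28), muscle (at most 6.10), red cell (at most 6.40) and adipocyte markers (at most 5.42) were near 0. Osteoblast markers summed to 384, 247, 345 and 221 CPM, mostly Runx2, and tenocyte markers to 1280, 1509, 1032 and 1012, led by Col11a1 or Fmod. Barcodes with high Scrublet doublet scores made up 99 of 235 (42.1%), 22 of 200, 26 of 207 (12.6%) and 120 of 538 (22.3%) chosen cells. The share called high was set to rise with the number of barcodes in a library. Past the filter these numbered 11954, 6942, 8693 and 11677. Part of the spread between libraries can thus come from the setting, and a comparison with all filtered barcodes was not made. With the high-scoring barcodes left out, the Mmp13 ratio at 12 dpa was 0.17 in place of −1.01.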

How the data were processed

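The 4 libraries (10x 3′ v3) were analysed from deposited UMI counts per gene and barcode, whole numbers, made with Cell Ranger 7.1.0 on mm10, per the submitters' processing notes; how barcodes were called is not given in the sources used here. Of 32285 gene IDs, 32235 were found in GENCODE M21. The cells and gene lists were chosen with earlier results of these data known.

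From the counts, the rule was applied in python 3.11.15 (numpy 2.4.6, scipy 1.17.1, pandas 2.3.3). UMIs were summed over cells and divided by their total (CPM), and log2 ratios took a pseudocount of 1 CPM, for genes whose mean over the 4 libraries reached 20 CPM. This understates changes of low genes. Genes were called past 2-fold, with no test, since each group was 1 library. Intervals are exact at 95%, and 3 counts set the limit for a share of 0. Cells were thinned to 3000 UMIs for shares of detection. Endothelial barcodes had at least 2 UMIs of Cdh5 and none of Ptprc, immune ones the reverse, and mural ones neither but more than 2 of Rgs5. Doublets were not removed in the main analysis; Scrublet (scanpy 1.11.5) at 0.8% per 1000 barcodes was an alternative. Scripts were tested on simulated data.

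Named genes were the 8 highest and 8 lowest per comparison (at least 50 CPM and in 10% of cells of the higher library), 15 genes against the other classes, and list members. They left out rule genes, sex-linked, mitochondrial and blood genes, genes on the marker lists of other cell types (other genes of those types could be named), and genes over 10 times higher in endothelial or immune barcodes. Genes named between cells led by Prg4 and by Inhba, and the limits on Prg4 UMIs, were chosen after their values were seen. Alternatives changed the filter, doublets, marker sum, depth, pseudocount, gene minimum, scaling, averaging and subgroup. A few genes that the rule names are not reported here.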

Additional observations from a re-analysis of the deposited data

Results flagged for a closer look

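Sex-linked transcripts lie outside the comparisons made. In the 12 dpa library 55.5% of the chosen cells (48.3 to 62.5) had at least 2 Xist UMIs and no Y-linked UMI, and 0 of 200 had the male pattern (a limit of 1.5%). In the other libraries 92.3%, 73.9% and 66.5% of the chosen cells had the male pattern, against labels that give a pool of both sexes for all 4 libraries. Barcodes that the rule left out also carried signal: 9 barcodes at 17 dpa and 14 at 28 dpa held at least 50 Prg4 UMIs but were not eligible, and Clic5 was detected in 8 of 9 and 12 of 14 of them. The unamputated library held 3 such barcodes and the 12 dpa library 0.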

How the results depend on the processing

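No paired analysis was possible because each group held 1 library. The share of eligible cells chosen (unamputated, 12, 17, 28 dpa) moved with the stricter cell filter (7.28%, 7.24% and, at 28 dpa, 10.5%), without high Scrublet scores (3.97% unamputated, 7.55% at 28 dpa), with a marker sum of at least 2 (6.89%, 5.88% and 9.30% after amputation) or 5 (3.88%, 4.14%, 3.76%, 6.65%), with thinned cells (1.36%, 1.94%, 2.35%, 4.67%) and without keratin cells (7.31%, 6.85% and, at 28 dpa, 10.7%). Over all filtered barcodes it was 1.97%, 2.88%, 2.38% and 4.61%, and over the 7 classes 11%, 11.2%, 8.92% and 17.7%. The 28 dpa share was the highest under each of these. Inhba led in 70.4% (unamputated), 31.2% (17 dpa) and 26.2% (28 dpa) of thinned cells, in 59.3% and 62.7% of cells of at least 10000 UMIs at 17 and 28 dpa, and in 38.7% at 28 dpa with a sum of at least 5.

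Counts of genes past 2-fold, 278, 219 and 669, became 1495, 1018 and 1310 with thinned cells, 148, 143 and 443 with a pseudocount of 10 CPM, 683, 525 and 1290 with a minimum of 5 CPM, 132, 119 and 357 with 50 CPM, 2205, 2399 and 2611 in cells led by Hapln1, 810 and 402 (12 and 17 dpa) in cells led by Prg4, and 579 at 12 dpa with a sum of at least 10; fewer cells or counts enter the thinned and subgroup sums. Against the 6 other classes 46 genes were lower with a sum of at least 5 and 18 with thinned cells, in place of 29, and 39 were lower in cells led by Prg4 than in those led by Inhba with thinned cells, in place of 10.

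Directions turned as follows, and the cause was not tested. Restricting to cells led by Hapln1 (11 to 25 a library) turned the lining list at 12 dpa (0.97), the log2 ratio of Ccl2 (−5.92 at 12 dpa, −3.23 at 28 dpa), Tnxb (0.31), Scara5 (4.89), Krt6a (1.16), Mest (1.55), Mmp13 (4.80) and Birc5 (−0.25) at 12 dpa, Nrg1 (2.75, 2.66, 1.90), Zfp385b (−3.34), Ckb (−0.77) and Mmp3 (4.48) at 17 dpa, and Sema3e (−1.11), Mki67 (0.51), Top2a (0.10), Cenpf (2.23), Mmp13 (0.80) and Mmp3 (3.57) at 28 dpa. Restricting to cells led by Prg4 turned Igfbp2 (0.78), Cstdc5 (0.32) and Fst (0.04) at 12 dpa, Krt6a (0.52), Fst (0.84) and Comp (−0.07) at 17 dpa, and Zfp385b (−0.25), Krt6a (1.76), Igfbp2 (2.07), Htra4 (−0.56), Col22a1 (−0.57), Tagln (0.13) and Itga6 (0.57) at 28 dpa. Restricting to cells led by Inhba turned, at 17 dpa, Zfp385b (−0.14), Clic5 (−0.14) and Col22a1 (−0.63). With thinned cells: Mest (0.04) at 12 dpa, Stmn2 (−1.68) and Fst (1.31) at 17 dpa, and Stmn2 (−0.18) and Itga6 (0.03) at 28 dpa. Without keratin cells: Nrg1 (0.59) at 12 dpa and Krt6a (0.04 and 0.55) at 17 and 28 dpa. Without high Scrublet scores: Clic5 (0.28) and Mmp13 (0.17) at 12 dpa and Mmp3 (0.25) at 17 dpa. With a sum of at least 2: Mt4 (1.31) at 12 dpa. Genes under about 20 CPM in one library are limited by depth. Sums to which 1 cell gives 31.1% or more of the UMIs are limited by the few cells that carry them.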
